A study of Rattus norvegicus with 9 samples.

Results

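Fatty acid oxidation and ketone body genes were followed in 9 poly(A) RNA libraries of rat kidney, 3 each from an I/R + rapamycin group, an I/R group and a sham group. A list of 31 genes was looked up by symbol in the deposited FPKM table of 11235 genes, and 30 were found: 22 whose enzymes work mainly in mitochondria, 7 of the peroxisome and the regulator Ppara. Hadhb has no row there and has no value here. All 30 had enough reads to be tested.

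I/R stands for ischaemia and reperfusion, an injury in which renal blood flow was stopped for 45 min and let back in. Animals of the I/R + rapamycin group were injured alike and were given rapamycin, which blocks the growth kinase complex mTORC1, and sham animals had surgery with no clamping injury. All groups were wild-type Sprague-Dawley rats aged 6 to 8 weeks. The labels disagreed on the rest: one text gave male rats, clamping of the left renal artery and 1 mg/kg rapamycin per day by the intraperitoneal route, another both sexes, oral gavage from 1 day before surgery, doses of 1 or 2 mg/kg and reperfusion for 3 or 7 days, so the sex, dose, route and time of these libraries are unsettled. The labels named kidney as the tissue and renal tubular cells as the cell type, and put all libraries in batch 1. They did not say that replicates were separate animals, so p-values here measure the spread between libraries, which may be technical.

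Kidney proximal tubule cells meet much of their energy demand by burning fatty acids. Long-chain fatty acids are activated to acyl-CoA, carried into mitochondria as carnitine esters and shortened in repeated rounds of dehydrogenation, hydration, a further dehydrogenation and thiolytic cleavage, with electrons passed to the respiratory chain through electron transfer flavoprotein. Peroxisomes shorten very-long-chain and branched fatty acids by a parallel set of enzymes. PPAR-alpha, a nuclear receptor that binds fatty acids, switches on many genes of both routes.

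Total counts ranged from 44582251 to 60538627 per library, and 17335 genes were tested. The 30 genes took 0.548 to 0.576% of all counts in the I/R + rapamycin libraries, 0.513 to 0.528% in the I/R libraries and 0.515 to 0.590% in the sham libraries. The first principal component of all genes, with 26.2% of the variance, placed I/R 1 and sham 3 opposite I/R + rapamycin 1 and 2. Here and below, a listed gene is called measured where it had a row in the FPKM table, because genes were looked up there by symbol. A gene without a row may still have reads. All 12 proximal tubule markers were measured, and their summed level was 4832 to 5330 FPKM in I/R + rapamycin, 5029 to 5294 FPKM in I/R and 4538 to 6416 FPKM in sham libraries. Of 5 red blood cell markers 3 had a row, and their sum was 23.8 to 153 FPKM in I/R + rapamycin, 382 to 997 FPKM in I/R and 70.7 to 755 FPKM in sham libraries. Summed podocyte markers (5 of 5) were at 80.5 to 121 FPKM in I/R + rapamycin, 88.6 to 122 FPKM in I/R and 142 to 151 FPKM in sham libraries. Of 6 adipocyte markers only Adipoq had a row, with 2.67 to 6.48 FPKM over all libraries. In bulk tissue, fewer cells of a type and less RNA per cell cannot be told apart, and the part of these marker differences in the results below was not tested.

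FPKM, which divides a count by transcript length and library size, ranks genes against each other. The mean over 9 libraries was highest for Echs1, the mitochondrial enoyl-CoA hydratase, at 237 FPKM, followed by the mitochondrial acetoacetyl-CoA thiolase Acat1 at 209.8 FPKM, the thiolase Acaa2 at 173 FPKM and the hydroxyacyl-CoA dehydrogenase Hadh at 165 FPKM. The ranges of neighbours in this order overlapped between libraries, while those of Echs1 (197 to 267 FPKM) and Hadh (141 to 195 FPKM) did not. At the low end stood Ppara at 8.14 FPKM, Bdh1 at 10.6 FPKM, Cpt2 at 14.0 FPKM and Acot2 at 14.5 FPKM. The 22 mitochondrial genes summed to 1818 to 1915 FPKM in I/R + rapamycin, 1703 to 1747 FPKM in I/R and 1740 to 2018 FPKM in sham libraries. The 7 peroxisomal genes summed to between 304.5 and 348 FPKM in I/R + rapamycin, 281 and 326 FPKM in I/R and 266 and 298.5 FPKM in sham libraries.

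**Figure D1:**
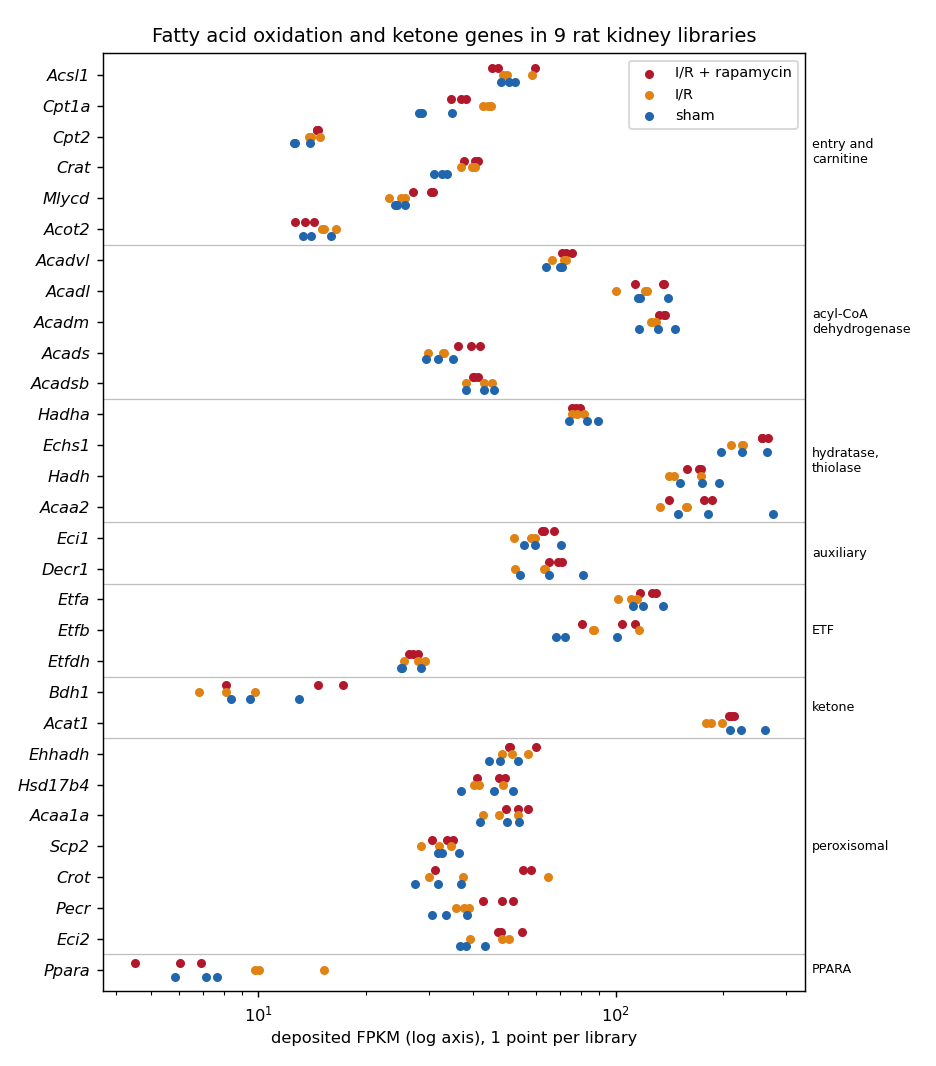
Deposited FPKM of the 30 genes on a log axis, grouped by step down the page, with 1 point per library and the I/R + rapamycin, I/R and sham libraries in separate colours. Levels run from Ppara with a mean of 8.14 FPKM to Echs1 with 237 FPKM, and for most genes the points of the 3 groups lie among each other.

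The groups give 3 comparisons: rapamycin on top of the injury against the injury alone, rapamycin with the injury against sham, and the injury against sham. Differences are log2 fold changes from edgeR's quasi-likelihood test on counts, called at a Benjamini-Hochberg adjusted p under 0.05 over all genes tested. Levels per library are CPM, read counts scaled to library size with TMM factors.

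In I/R + rapamycin against I/R, most enzymes were fitted slightly higher and Ppara lower, and none passed the test. By edgeR 0 of 30 were called, against 22 of 17335 genes (0.127%). At an unadjusted p under 0.05, 5 genes were higher, against 7.11% of all genes, and 1 was lower, against 9.14%. The list was looked up in the FPKM table, and of its 11232 genes tested 1103 were higher and 1094 lower at this p. The groups did not overlap in CPM for 9 genes that were higher, against 11.8% of all genes. They did not overlap for 2 that were lower, against 12.8%. Within the 11232 genes, 1670 were higher without overlap and 1474 lower. In all, 27 of 30 log2 fold changes lay above 0, with Cpt1a, Acot2 and Ppara below. Above 0 lay also 8812 of the 17335 genes tested, and 6112 of the 11232 of them in the FPKM table. The median log2 fold change was 0.16 over the 30 genes, 0.17 over the mitochondrial and 0.18 over the peroxisomal genes. It was 0.01 over all genes tested and 0.03 over those of the FPKM table. DESeq2 called 1 of them, Ppara, lower, where it called 3.08% of all genes lower.

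These medians stood beside a trend with transcript length. Across 11232 genes, Spearman's rho between the log2 fold change and the length implied by counts and FPKM was -0.483 in I/R + rapamycin against I/R, -0.256 in I/R + rapamycin against sham and 0.304 in I/R against sham; genes are not independent replicates. The median implied length was 2554 bases over the 30 genes and 3632 bases over the peroxisomal ones, against 3202 bases over all genes. With the length trend taken out, the median of I/R + rapamycin against I/R was 0.12 over the 30 genes and 0.10 over the mitochondrial genes. It was 0.24 over the peroxisomal genes and 0.03 over all genes of that fit. In that fit the 30 genes had medians of 0.13 in I/R + rapamycin against sham and 0.005 in I/R against sham. All its genes had 0.03 and -0.002.

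In I/R + rapamycin against sham, again no gene of the list passed the test. By edgeR 0 of 30 were called, against 27 of 17335 genes (0.156%). At an unadjusted p under 0.05, 7 were higher, against 6.06% of all genes, and 0 were lower, against 7.75%. Among the 11232 tested genes of the FPKM table, 804 were higher and 889 lower at this p. The groups did not overlap for 8 genes, all higher in I/R + rapamycin, against 9.69% of all genes. Lower without overlap were 0, against 9.65% of all genes. Within the 11232 genes, 1156 were higher without overlap and 1082 lower. The median log2 fold change was 0.09 over the 30 genes, 0.09 over the mitochondrial and 0.20 over the peroxisomal genes. It was 0.00 over all genes and 0.01 over those of the FPKM table. Single libraries moved the medians of the list. Over the 30 genes the median was 0.05 without sham 1, 0.22 without sham 2 and 0.16 without I/R + rapamycin 3. Over the mitochondrial genes it was 0.04 without sham 1, 0.21 without sham 2 and 0.06 without sham 3, and over the peroxisomal genes 0.30 without sham 2 and 0.11 without I/R + rapamycin 2. DESeq2 called 3, Cpt1a, Crat and Pecr, all higher, where it called 1.11% of all genes higher.

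In I/R against sham the enzymes were fitted on both sides of 0, 13 of the 30 genes above and 17 below. Above 0 lay 8784 of the 17335 genes tested, and 5362 of the 11232 of them in the FPKM table. Cpt1a, Crat and Ppara stood at higher levels in each I/R library than in any sham library. By edgeR 0 of 30 were called, against 10 of 17335 genes (0.0577%). At an unadjusted p under 0.05, 3 were higher, against 4.83% of all genes, and 1 was lower, against 4.59%. Among the 11232 tested genes of the FPKM table, 561 were higher and 633 lower at this p. The groups did not overlap for Cpt1a, Crat and Ppara, all higher in I/R, against 7.43% of all genes. Lower without overlap were 0, against 7.19% of all genes. Within the 11232 genes, 822 were higher without overlap and 929 lower. The median was -0.03 over the 30 genes, -0.04 over the mitochondrial and 0.08 over the peroxisomal genes. It was 0.00 over all genes and -0.01 over those of the FPKM table. The median over the 30 genes turned above 0 without I/R 1 (0.01) or sham 2 (0.06). With any other library left out it ranged from -0.07 to -0.01, and with the length trend removed it was 0.005. Over the mitochondrial genes it was 0.03 without sham 2 and -0.09 to -0.03 with any other library left out, and over the peroxisomal genes 0.18 without sham 2 and 0.04 to 0.08 with any other library left out. DESeq2 called 2, Cpt1a and Ppara, both higher, where it called 0.731% of all genes higher.

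These comparisons share libraries, so their values are not separate evidence. In each of them the 95% interval of the fold change lay within 2-fold either way for 28 of 30 genes and within 1.5-fold for 23 of 30. Not within 2-fold were Bdh1 and Ppara in I/R + rapamycin against I/R, Crot and Bdh1 in I/R + rapamycin against sham, and Crot and Ppara in I/R against sham. Crot and Bdh1 had the widest intervals.

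**Figure D2:**
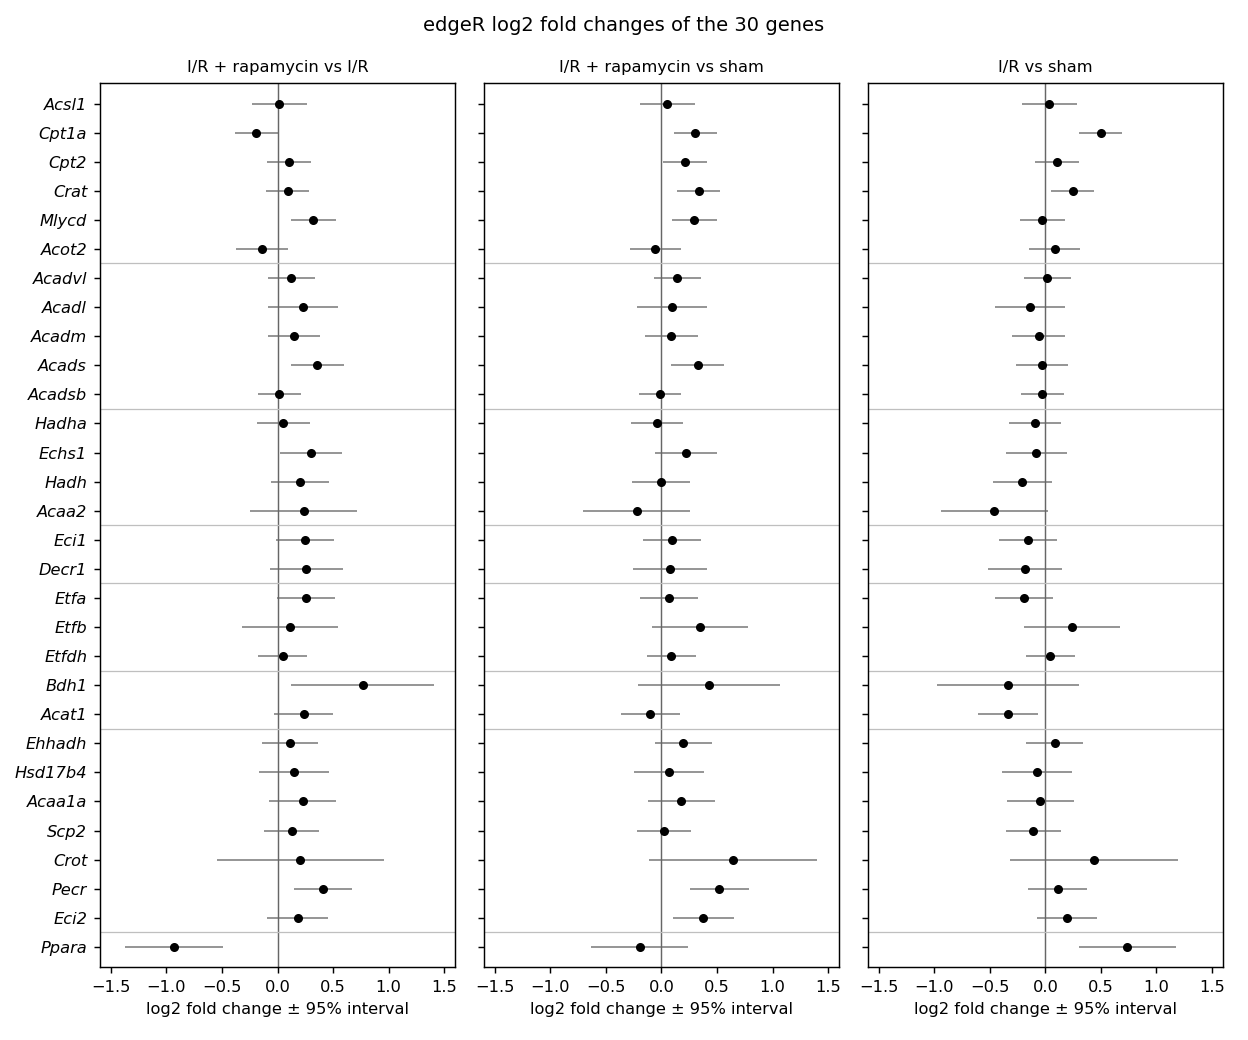
Log2 fold changes of the 30 genes with 95% intervals in the 3 comparisons, I/R + rapamycin against I/R, I/R + rapamycin against sham and I/R against sham, with 0 marking no difference. Ppara reaches -0.93 in the first panel and 0.74 in the third, and the enzymes lie mostly within 0.5 of 0.

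Entry into mitochondria was covered by 6 genes. Cpt1a, the carnitine palmitoyltransferase that controls how much long-chain fatty acid enters mitochondria, was at 169, 181 and 179 CPM in I/R + rapamycin, 196, 205 and 204 CPM in I/R and 157, 136 and 135 CPM in sham libraries. In CPM the 3 groups did not overlap, with I/R highest, I/R + rapamycin between and sham lowest. In FPKM I/R + rapamycin 1, at 34.59, lay just below sham 1, at 34.79, so these groups overlapped there. The log2 fold change was 0.50 in I/R against sham (SE 0.088, 95% interval 0.30 to 0.69, edgeR adjusted p = 0.105), 0.31 in I/R + rapamycin against sham (SE 0.088, adjusted p = 0.188) and -0.19 in I/R + rapamycin against I/R (SE 0.088, adjusted p = 0.31). DESeq2 gave an adjusted p of 4.8e-05 in I/R against sham and 0.0392 in I/R + rapamycin against sham. Over all alternatives tried the adjusted p of Cpt1a ranged from 4.8e-05 to 0.426 in I/R against sham.

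Crat, the carnitine acetyltransferase that buffers acetyl-CoA as acetylcarnitine, was at 165, 163 and 145 CPM in I/R + rapamycin, 136, 157 and 151 CPM in I/R and 126, 123 and 126 CPM in sham libraries. Every library of both injured groups lay above the sham libraries, and the injured groups overlapped each other. For Crat the log2 fold change was 0.34 in I/R + rapamycin against sham (SE 0.087, edgeR adjusted p = 0.161) and 0.25 in I/R against sham (SE 0.087, adjusted p = 0.419), and DESeq2 gave an adjusted p of 0.0166 for the first. Mlycd, the malonyl-CoA decarboxylase that removes the inhibitor of the carnitine step, averaged 68.5 ± 6.25 CPM in I/R + rapamycin, 54.7 ± 4.41 CPM in I/R and 55.7 ± 1.15 CPM in sham libraries (SD, n = 3 each). Its I/R + rapamycin libraries lay above all others, with log2 fold changes of 0.32 against I/R (SE 0.092, edgeR adjusted p = 0.16) and 0.30 against sham (SE 0.092, adjusted p = 0.209).

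The acyl-CoA synthetase Acsl1, the inner carnitine palmitoyltransferase Cpt2 and the mitochondrial thioesterase Acot2 had log2 fold changes between -0.14 and 0.21 in the 3 comparisons. The largest of these was Cpt2 in I/R + rapamycin against sham, with 39.7 ± 1.07 CPM in I/R + rapamycin and 34.3 ± 2.97 CPM in sham libraries (SD, n = 3 each, edgeR adjusted p = 0.337). Acot2 has near-identical relatives, so its counts are uncertain.

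The 5 acyl-CoA dehydrogenases open each round for a given chain length. All were fitted above 0 in I/R + rapamycin against I/R, with a median log2 fold change of 0.15. So were 8812 of the 17335 genes tested. Acads, the short-chain enzyme, was at 102, 96.6 and 85.0 CPM in I/R + rapamycin, 66.7, 79.5 and 74.9 CPM in I/R and 72.2, 84.5 and 69.2 CPM in sham libraries. The lowest I/R + rapamycin library stood just above the highest sham library, and I/R and sham overlapped. Its log2 fold change was 0.36 in I/R + rapamycin against I/R (SE 0.11, edgeR adjusted p = 0.17), 0.33 in I/R + rapamycin against sham (SE 0.11, adjusted p = 0.23) and -0.03 in I/R against sham (SE 0.11, adjusted p = 0.957).

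Acadl, the long-chain enzyme, was at 255, 256 and 203 CPM in I/R + rapamycin, 171, 227 and 211 CPM in I/R and 200.0, 258 and 211 CPM in sham libraries. All groups overlapped, and the log2 fold changes were 0.23, 0.09 and -0.14 in I/R + rapamycin against I/R, I/R + rapamycin against sham and I/R against sham (SE 0.14 each). Acadm, the medium-chain enzyme, had 363 to 383 CPM in I/R + rapamycin, 324 to 352 CPM in I/R and 308 to 400.1 CPM in sham libraries. Acadvl, the very-long-chain enzyme, averaged 203 ± 7.94 CPM in I/R + rapamycin, 186 ± 14.9 CPM in I/R and 184 ± 15.4 CPM in sham libraries (SD, n = 3 each). Acadsb, which acts mainly in isoleucine breakdown, averaged 193 ± 1.85 CPM in I/R + rapamycin, 191 ± 9.32 CPM in I/R and 194 ± 15.4 CPM in sham libraries (SD, n = 3 each).

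The hydratase, dehydrogenase and thiolase steps were represented by Hadha, Echs1, Hadh and Acaa2. Echs1 was at 480.4, 465 and 445 CPM in I/R + rapamycin, 347, 403 and 378 CPM in I/R and 378, 473 and 341 CPM in sham libraries. The I/R + rapamycin libraries lay above the I/R libraries, while sham 2 lay among them. Echs1 had a log2 fold change of 0.30 in I/R + rapamycin against I/R (SE 0.13, edgeR adjusted p = 0.278) and 0.22 in I/R + rapamycin against sham (SE 0.13, adjusted p = 0.47).

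Acaa2, a thiolase of the last step of the mitochondrial round, was at 364, 386 and 281 CPM in I/R + rapamycin, 299.9, 320.0 and 257 CPM in I/R and 286, 371 and 547 CPM in sham libraries. Sham 3 stood far above the other 8 libraries for this gene. In I/R against sham the log2 fold change was -0.46 (SE 0.22, edgeR adjusted p = 0.56), and -0.17 without sham 3. Against sham, I/R + rapamycin gave -0.22 (SE 0.22, adjusted p = 0.691), and 0.06 without sham 3. Hadha, the alpha subunit of the trifunctional protein, had 236 to 257 CPM in I/R + rapamycin, 224 to 249 CPM in I/R and 223 to 287 CPM in sham libraries. Hadh averaged 326 ± 14.7 CPM in I/R + rapamycin, 284 ± 26.5 CPM in I/R and 327 ± 46.8 CPM in sham libraries (SD, n = 3 each).

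Eci1 and Decr1 prepare unsaturated fatty acids for the same round. Eci1, an enoyl-CoA isomerase, was at 89.7, 96.5 and 85.4 CPM in I/R + rapamycin, 68.0, 83.9 and 76.9 CPM in I/R and 78.8, 99.5 and 76.2 CPM in sham libraries. Decr1, the dienoyl-CoA reductase, was at 101, 95.8 and 99.97 CPM in I/R + rapamycin, 70.2, 91.7 and 86.1 CPM in I/R and 88.7, 117 and 75.9 CPM in sham libraries. For both genes the I/R + rapamycin libraries lay just above the I/R libraries and within the sham range. The log2 fold changes of I/R + rapamycin against I/R were 0.25 for Eci1 (SE 0.12, edgeR adjusted p = 0.331) and 0.26 for Decr1 (SE 0.15, adjusted p = 0.424), and those against sham were below 0.1 for both.

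Electron transfer flavoprotein hands the electrons of the dehydrogenases to its oxidoreductase Etfdh. Its alpha subunit Etfa was at 342, 354 and 305 CPM in I/R + rapamycin, 251, 307 and 279 CPM in I/R and 299.9, 363 and 292 CPM in sham libraries. For Etfa the log2 fold change was 0.26 in I/R + rapamycin against I/R (SE 0.12, edgeR adjusted p = 0.313), and the 2 groups overlapped. The beta subunit Etfb was at 123, 114 and 84.6 CPM in I/R + rapamycin, 116, 93.8 and 87.6 CPM in I/R and 72.8, 108 and 71.2 CPM in sham libraries. Etfb varied by 1.73-fold over the 9 libraries and overlapped in every comparison, with log2 fold changes of 0.11, 0.35 and 0.24 (SE 0.19 each) in I/R + rapamycin against I/R, I/R + rapamycin against sham and I/R against sham. Etfdh stayed between 144 and 175 CPM in all libraries.

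Ketone bodies are an alternative fuel made from acetyl-CoA and broken down again in mitochondria. Bdh1, the beta-hydroxybutyrate dehydrogenase, was at 32.5, 27.8 and 14.7 CPM in I/R + rapamycin, 11.8, 15.2 and 17.2 CPM in I/R and 16.5, 15.6 and 23.5 CPM in sham libraries. I/R + rapamycin 1 and 2 were above every other library, and I/R + rapamycin 3 lay among the I/R libraries. Against I/R the log2 fold change was 0.77 (SE 0.28, 95% interval 0.12 to 1.41, edgeR adjusted p = 0.246), and it was 0.53 when I/R + rapamycin 1 was left out and 1.04 when I/R + rapamycin 3 was.

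Acat1, the thiolase that splits acetoacetyl-CoA, was at 535, 545 and 532 CPM in I/R + rapamycin, 436, 505 and 429 CPM in I/R and 499.7, 669.6 and 556 CPM in sham libraries. The I/R + rapamycin libraries lay close together above the I/R libraries, and I/R overlapped sham through I/R 2. Acat1 was the 1 gene of the list lower in I/R than in sham at an unadjusted p under 0.05, with a log2 fold change of -0.33 (SE 0.12, edgeR adjusted p = 0.432), and it was 0.23 in I/R + rapamycin against I/R (SE 0.12, adjusted p = 0.369).

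All 7 peroxisomal genes had log2 fold changes above 0 in I/R + rapamycin against both I/R and sham. Among the 17335 genes tested, 8812 lay above 0 against I/R and 8703 against sham. Pecr, the peroxisomal enoyl-CoA reductase, which takes part in chain elongation rather than breakdown, was at 104, 97.9 and 82.6 CPM in I/R + rapamycin, 66.1, 77.4 and 70.8 CPM in I/R and 62.6, 76.5 and 59.4 CPM in sham libraries. All 3 I/R + rapamycin libraries lay above the other 6. The log2 fold change was 0.52 against sham (SE 0.12, 95% interval 0.25 to 0.78, edgeR adjusted p = 0.122) and 0.41 against I/R (SE 0.12, adjusted p = 0.166), and DESeq2 gave an adjusted p of 0.00921 for the first.

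Eci2, an enoyl-CoA isomerase of peroxisomes that is also described in mitochondria, was at 95.6, 98.2 and 108 CPM in I/R + rapamycin, 73.3, 97.0 and 95.7 CPM in I/R and 69.7, 87.3 and 75.1 CPM in sham libraries. The I/R + rapamycin libraries lay above the sham libraries, with a log2 fold change of 0.38 (SE 0.12, edgeR adjusted p = 0.229), and overlapped the I/R libraries. Ehhadh, the peroxisomal bifunctional enzyme and a classical PPAR-alpha target, averaged 209.7 ± 25.1 CPM in I/R + rapamycin, 194 ± 10.4 CPM in I/R and 183 ± 21.7 CPM in sham libraries (SD, n = 3 each).

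Crot, which moves medium-chain products out of the peroxisome as carnitine esters, was the most scattered gene of the list within I/R and is given per library after its values were seen. It was at 218, 209 and 113 CPM in I/R + rapamycin, 103, 139 and 226 CPM in I/R and 129, 118 and 99.0 CPM in sham libraries. High values stood in I/R + rapamycin 1 and 2 and in I/R 3, so the injured groups each held both high and low libraries, and the log2 fold change of I/R + rapamycin against sham was 0.64 (SE 0.33, edgeR adjusted p = 0.439). The bifunctional enzyme Hsd17b4 had 197 to 247 CPM in I/R + rapamycin, 188 to 222 CPM in I/R and 172 to 249 CPM in sham libraries. The thiolases Acaa1a and Scp2 averaged 108 ± 10.1 and 276 ± 13.2 CPM in I/R + rapamycin, 92.2 ± 14.0 and 253 ± 28.4 CPM in I/R and 95.2 ± 14.0 and 273 ± 26.4 CPM in sham libraries (SD, n = 3 each). Acaa1a has a near-identical neighbour, Acaa1b, and its counts are uncertain.

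Ppara, the gene of PPAR-alpha, was at 10.6, 16.5 and 13.7 CPM in I/R + rapamycin, 33.0, 23.3 and 21.5 CPM in I/R and 16.8, 16.6 and 13.3 CPM in sham libraries. The I/R libraries lay above all others, and I/R + rapamycin and sham overlapped. The log2 fold change was -0.93 in I/R + rapamycin against I/R (SE 0.20, 95% interval -1.37 to -0.49, edgeR adjusted p = 0.099), 0.74 in I/R against sham (SE 0.20, adjusted p = 0.288) and -0.19 in I/R + rapamycin against sham (SE 0.20, adjusted p = 0.709). DESeq2 gave an adjusted p of 0.0017 for the first and 0.0439 for the second. In I/R + rapamycin against I/R Ppara lay opposite in sign to 27 of the other 29 genes.

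**Figure D3:**
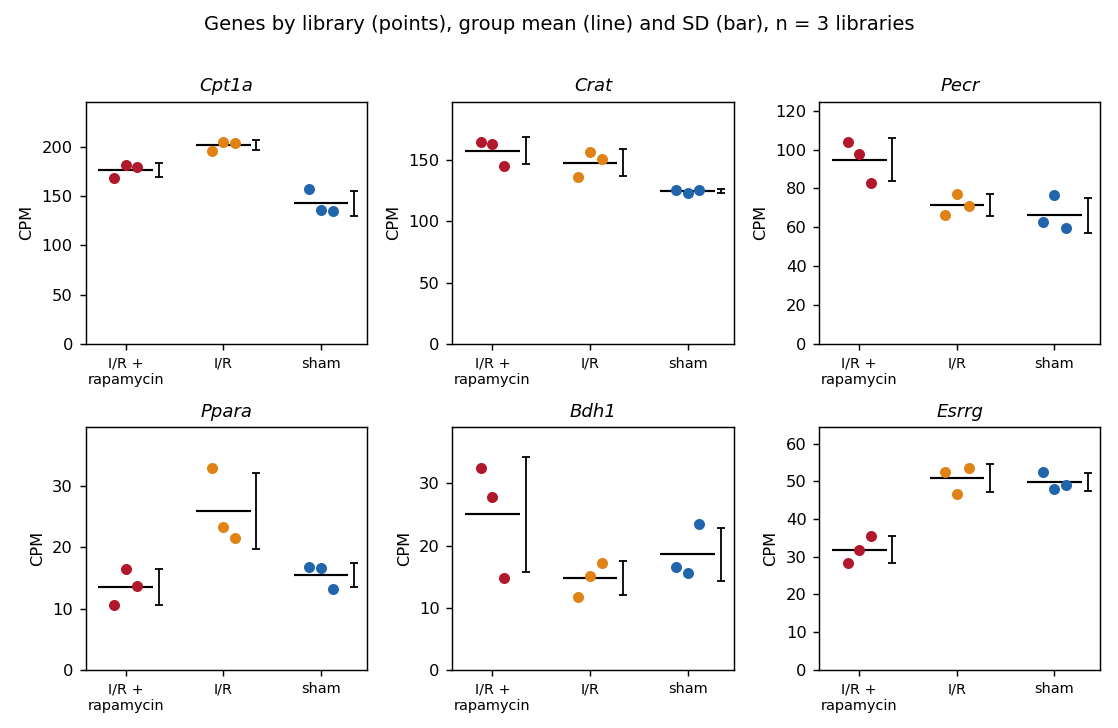
CPM of Cpt1a, Crat, Pecr, Ppara, Bdh1 and Esrrg, with 1 point per library, a line at the group mean and a bar of SD on either side of it (n = 3 libraries per group), groups from left to right I/R + rapamycin, I/R and sham, each axis from 0. The 3 I/R + rapamycin libraries of Esrrg lie at 28.3 to 35.4 CPM, below the 6 others, and those of Pecr lie above the 6 others.

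Of 19 regulators listed around the pathway 15 were measured, and 1 of them was called in both comparisons with I/R + rapamycin. By edgeR 0.127% of all genes were called against I/R and 0.156% against sham. Esrrg, the orphan nuclear receptor ERR-gamma, which drives genes of mitochondrial oxidation in oxidative tissues, was at 28.3, 31.8 and 35.4 CPM in I/R + rapamycin, 52.6, 46.5 and 53.6 CPM in I/R and 52.4, 48.0 and 49.0 CPM in sham libraries. Esrrg fell in I/R + rapamycin, with a log2 fold change of -0.68 against I/R (SE 0.10, edgeR adjusted p = 0.0408) and -0.64 against sham (SE 0.10, adjusted p = 0.0446), and was 0.03 in I/R against sham (SE 0.10, adjusted p = 0.951). Both calls sat near the threshold: of 20 alternatives, the call was lost in 12 against I/R and in 13 against sham, with adjusted p between 7.7e-06 and 0.194 and between 2.9e-05 and 0.219, while the log2 fold change stayed between -0.76 and -0.57. Left out 1 at a time, the call against I/R was lost without any library other than I/R + rapamycin 3 or sham 3, and the call against sham without any other than I/R + rapamycin 3 or I/R 1.

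At an unadjusted p under 0.05, 4 of the 15 regulators were lower, against 9.14% of all genes, and 1 higher, against 7.11%, in I/R + rapamycin against I/R. Prkaa2, a catalytic subunit of the energy sensor AMPK, was at 16.1, 25.6 and 26.5 CPM in I/R + rapamycin, 42.2, 34.4 and 36.3 CPM in I/R and 32.6, 22.8 and 30.8 CPM in sham libraries. Its I/R + rapamycin and I/R libraries did not overlap, with a log2 fold change of -0.73 (SE 0.20, edgeR adjusted p = 0.149, DESeq2 adjusted p = 0.0202). The median of the 15 was -0.07 in I/R + rapamycin against I/R, -0.13 in I/R + rapamycin against sham and 0.01 in I/R against sham.

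PPAR-alpha and ERR-gamma bind promoters through the motif AGGTCA, PPAR-alpha with RXR through 2 copies spaced by 1 base. RefSeq promoters of the GRCr8 build, 250 bases before to 50 bases after each gene start, held 28 of the 31 genes. Searched on both strands, 2 copies of AGGTCA with any 1 base between them were in 0 of the 28 and in 0.0583% of 27457 promoters, and TCAAGGTCA, an ERR element that contains AGGTCA and was added after values were seen, in 0 of the 28 and in 0.412%. AGGTCA alone was in 6 of the 28 (21.4%), those of Acadvl, Echs1, Eci1, Eci2, Hadhb and Hsd17b4, against 15.7% of all. The promoter of Acadvl is shown because it held AGGTCA at 2 places, and that of Cpt1a because Cpt1a had the smallest p of the list and its window held none; capitals mark AGGTCA. A match describes the letters and is no evidence of binding. Only exact matches were searched, and the longer motifs are so rare over all promoters that 0 of 28 decides nothing.
Acadvl, chr10:55236656-55236955, minus strand: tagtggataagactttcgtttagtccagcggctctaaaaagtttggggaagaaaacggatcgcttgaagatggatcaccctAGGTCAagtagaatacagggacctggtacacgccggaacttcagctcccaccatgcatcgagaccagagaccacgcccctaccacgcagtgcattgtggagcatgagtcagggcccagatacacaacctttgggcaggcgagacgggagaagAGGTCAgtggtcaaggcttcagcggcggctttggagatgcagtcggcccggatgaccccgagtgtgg
Cpt1a, chr1:209995910-209996209, plus strand: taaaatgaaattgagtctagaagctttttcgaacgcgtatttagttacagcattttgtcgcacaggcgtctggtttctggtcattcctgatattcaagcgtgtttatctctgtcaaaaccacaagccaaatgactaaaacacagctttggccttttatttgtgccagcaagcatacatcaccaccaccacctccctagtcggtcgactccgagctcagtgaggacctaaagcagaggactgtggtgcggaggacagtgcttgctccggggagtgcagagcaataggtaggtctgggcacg

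The wider pathway was read from lists of other genes, and edgeR called none of them in any comparison. DESeq2 called Oxct1 and Cyp4a8 higher and Acot9 lower in I/R against sham. There it called 0.731% of all genes higher and 0.756% lower. In I/R + rapamycin against sham it called Oxct1 higher, where it called 1.11% of all genes higher. Of 15 other uptake, activation and carnitine genes 11 were measured. At an unadjusted p under 0.05, 1 was higher in I/R + rapamycin against I/R (7.11% of all genes), 2 were higher (6.06%) and 1 lower (7.75%) in I/R + rapamycin against sham, and 1 was higher in I/R against sham (4.83%). The carnitine-acylcarnitine carrier Slc25a20 averaged 66.8 ± 1.81 CPM in I/R + rapamycin, 60.8 ± 6.20 CPM in I/R and 54.6 ± 4.10 CPM in sham libraries (SD, n = 3 each), with a log2 fold change of 0.29 in I/R + rapamycin against sham (SE 0.094, edgeR adjusted p = 0.222). The acyl-CoA synthetase Acsl3 had a log2 fold change of -0.33 in I/R + rapamycin against sham (SE 0.11, edgeR adjusted p = 0.22), and Acsl4, which prefers arachidonate, one of 0.26 in I/R against sham (SE 0.082, adjusted p = 0.376).

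The list of other mitochondrial genes held 14 symbols, among them Mut and Mmut, which are symbols of the same gene. Measured were 12, and their medians were 0.11 in I/R + rapamycin against I/R, 0.04 in I/R + rapamycin against sham and -0.03 in I/R against sham. In each comparison with I/R + rapamycin 1 was higher at an unadjusted p under 0.05, where 7.11% of all genes were higher against I/R and 6.06% against sham, and 1 was lower in I/R against sham (4.59% of all genes). The thioesterase Acot9 was at 46.6, 44.1 and 41.7 CPM in I/R + rapamycin, 36.6, 38.2 and 34.2 CPM in I/R and 49.0, 58.8 and 41.9 CPM in sham libraries. Its I/R libraries lay below all others, with a log2 fold change of -0.46 in I/R against sham (SE 0.12, edgeR adjusted p = 0.276, DESeq2 adjusted p = 0.0449). Hsd17b10, a hydroxyacyl-CoA dehydrogenase of branched-chain breakdown, had a log2 fold change of 0.43 in I/R + rapamycin against sham (SE 0.16, edgeR adjusted p = 0.275).

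Of 23 other peroxisomal genes 20 were measured, and at an unadjusted p under 0.05 2 were higher in I/R + rapamycin against I/R (7.11% of all genes), 3 in I/R + rapamycin against sham (6.06%) and 0 in I/R against sham (4.83%), with none lower. Hacl1, which cleaves branched hydroxyacyl-CoA, and the CoA hydrolase Nudt19 had log2 fold changes of 0.40 and 0.49 in I/R + rapamycin against sham (SE 0.12 and 0.15, edgeR adjusted p = 0.203 and 0.204).

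Among 6 other ketone genes, Oxct1, which activates acetoacetate for use as fuel, was at 1052, 1070.0 and 955 CPM in I/R + rapamycin, 847, 1037 and 1027 CPM in I/R and 734, 784 and 659 CPM in sham libraries. Every library of the injured groups lay above every sham library. The log2 fold change was 0.50 in I/R + rapamycin against sham (SE 0.12, edgeR adjusted p = 0.131, DESeq2 adjusted p = 0.00158) and 0.42 in I/R against sham (SE 0.12, edgeR adjusted p = 0.298, DESeq2 adjusted p = 0.0232).

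Of 13 further PPAR-alpha targets 10 were measured. In I/R + rapamycin against I/R 4 lay above 0 and 6 below, from -1.10 to 0.74, with a median log2 fold change of -0.06. Over all genes tested the median was 0.01, with 8812 of 17335 above 0. At an unadjusted p under 0.05, 0 were higher and 2 lower in I/R + rapamycin against I/R, where 7.11% of all genes were higher and 9.14% lower. In I/R + rapamycin against sham 1 was higher and 1 lower, against 6.06% and 7.75% of all genes, and in I/R against sham 2 were higher and 1 lower, against 4.83% and 4.59%. Cyp4a8, a fatty acid hydroxylase of a family with near-identical copies, was at 862, 879 and 488 CPM in I/R + rapamycin, 674, 975 and 1132 CPM in I/R and 552, 505 and 502 CPM in sham libraries. Its I/R libraries lay above the sham libraries, with a log2 fold change of 0.84 (SE 0.24, edgeR adjusted p = 0.305, DESeq2 adjusted p = 0.0199). The uncoupling protein gene Ucp2 had a log2 fold change of 0.45 in I/R against sham (SE 0.16, edgeR adjusted p = 0.419). Pdk4, the kinase that turns cells from glucose to fatty acids and was chosen after its values were seen, was at 56.1, 57.2 and 19.1 CPM in I/R + rapamycin, 88.7, 106 and 88.8 CPM in I/R and 64.6, 82.0 and 40.5 CPM in sham libraries. The I/R + rapamycin and I/R libraries of Pdk4 did not overlap, with a log2 fold change of -1.10 (SE 0.43, edgeR adjusted p = 0.28).

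The genes also varied between libraries of a group. The median coefficient of variation over the 30 genes was 7.31% in I/R + rapamycin, 8.87% in I/R and 12.7% in sham libraries, and the largest were 36.9% for Bdh1 in I/R + rapamycin, 40.4% for Crot in I/R and 33.2% for Acaa2 in sham libraries. Relative to each gene's mean log2 CPM, I/R + rapamycin 1, 2 and 3 lay at medians of 0.12, 0.17 and 0.04, I/R 1, 2 and 3 at -0.16, 0.00 and -0.07, and sham 1, 2 and 3 at -0.15, 0.09 and -0.12. Sham 2 was nearer to the I/R + rapamycin libraries than sham 1 and 3 were, and it held the highest value of 12 genes, against 9 for I/R + rapamycin 1. The lowest values stood in I/R 1, sham 1 and sham 3, with 8 genes each. Without I/R 1 and sham 3 the median log2 fold change over the 30 genes was 0.13 in I/R + rapamycin against I/R, 0.10 in I/R + rapamycin against sham and -0.01 in I/R against sham.

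**Figure D4:**
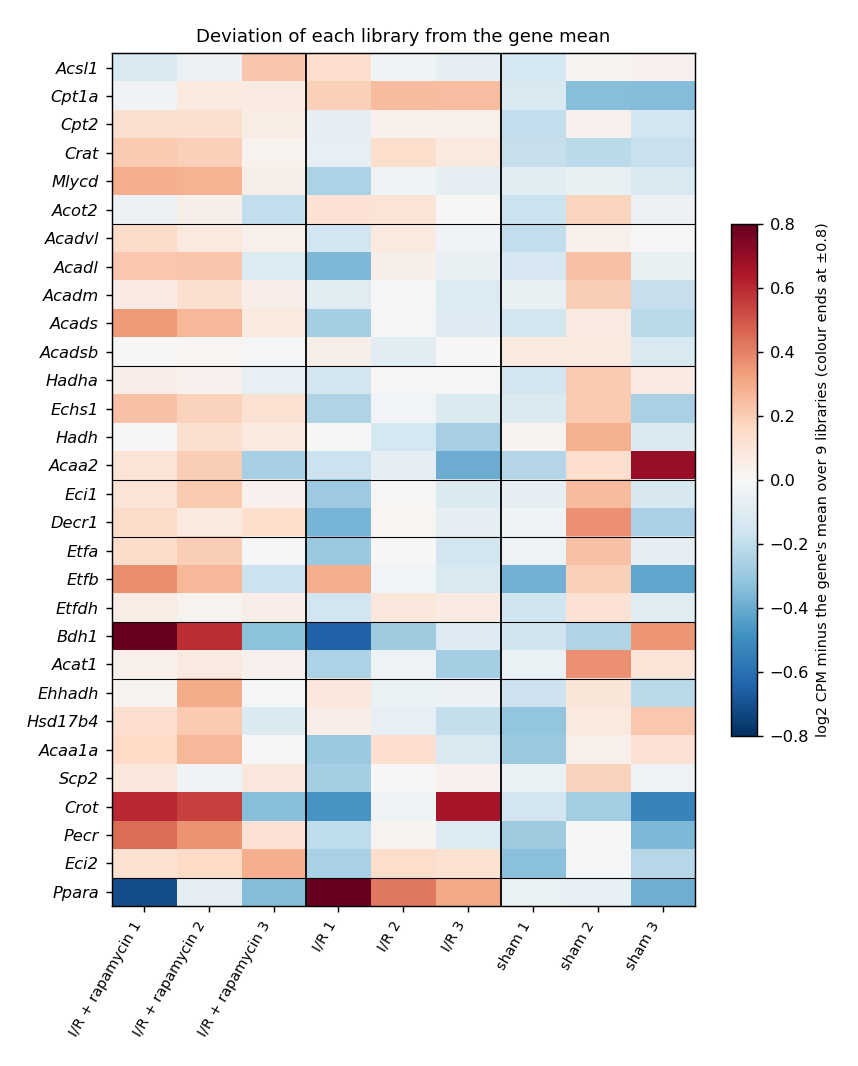
Log2 CPM of the 30 genes in each library minus the gene's mean over 9 libraries, with I/R + rapamycin, I/R and sham libraries from left to right and genes by step down the page; red is above and blue below the mean, and the colours end at 0.8 either way. Many genes are red together in I/R + rapamycin 1 and 2 and in sham 2, and blue together in I/R 1 and 3 and in sham 1 and 3. Genes below their mean number 28 in sham 1, 23 in sham 3, 21 in I/R 1 and 20 in I/R 3.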

How the data were processed

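Members and lists were chosen with earlier results of these data known. The authors deposited raw read counts for 30454 gene IDs and FPKM values for 11235 of them, as the file headers name the unit; every gene listed had 1 FPKM or more in at least 8 libraries. Tools named in the submitters' processing notes are HISAT2, StringTie, cutadapt and DESeq2, with the build Rnor_6.0. Versions, annotation, counting and strand settings were not given in the sources used here, so reads from overlapping or antisense genes cannot be told apart.

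Counts were tested in R 4.3.3 with edgeR 4.0.16: default count filter, TMM factors, robust quasi-likelihood tests, all 9 libraries in 1 fit without covariates, Benjamini-Hochberg over 17335 genes. CPM uses TMM-scaled library sizes, and an SE is the log2 fold change over the root of F. The procedure was tested on simulated data, but how often it finds changes as small as those of the list is not given here. Alternatives were DESeq2 1.42.0, RLE and upper-quartile factors, other count filters, the 6 libraries compared, a replicate block, limma 3.58.1 on log2(FPKM + 1) and log2(FPKM + 0.1), removal of the length trend and each library left out; the fit without I/R 1 and sham 3, and Esrrg under all alternatives, were added after the data were seen. An exact permutation test of 3 against 3 libraries cannot go below p = 0.1. Within a group no library was a copy of another (chi-square per degree of freedom 30.7 to 119), and pairs from different groups were not compared in this way.

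Values per library are given for called genes, for up to 2 members per step with the smallest p, and in each other list for called genes and up to 2 with the smallest p, plus Slc25a20; the other members are given by range or mean. Some genes of these lists are not reported here. The protein sequences planned for comparison were not used here.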

Additional observations from a re-analysis of the deposited data

How the results depend on the processing

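The alternatives called 0 of the 30 genes in every comparison except DESeq2, which called 1 in I/R + rapamycin against I/R, 3 in I/R + rapamycin against sham and 2 in I/R against sham. With each library left out in turn, the median log2 fold change over the 30 genes ranged from 0.131 to 0.216 in I/R + rapamycin against I/R, 0.0505 to 0.216 in I/R + rapamycin against sham and -0.0734 to 0.0559 in I/R against sham, and over the mitochondrial genes from 0.037 to 0.207 in I/R + rapamycin against sham. Of 960 values of 16 named genes, 913 kept direction and side of the threshold, 6 passed it under DESeq2 alone, 25 lost it, all Esrrg, and 16 changed sign, all uncalled. With the length trend removed these were Acads at 0.0139 and Echs1 at 0.0018 in I/R against sham and Etfb at -0.108 in I/R + rapamycin against I/R. Without I/R 1 and sham 3 they were Acaa2 at 0.0622 and Decr1 at -0.0587 in I/R + rapamycin against sham, and Bdh1 at 0.00709, Etfb at -0.00115 and Esrrg at -0.00454 in I/R against sham. With 1 library left out, the ranges that crossed 0 were -0.42 to 0.0623 for Acaa2, -0.193 to 0.0244 for Acat1 and -0.0586 to 0.265 for Decr1 in I/R + rapamycin against sham, and -0.0896 to 0.0593 for Acads, -0.315 to 0.00583 for Decr1, -0.177 to 0.0634 for Echs1 and -0.0072 to 0.0923 for Esrrg in I/R against sham. The cause was not tested. Replicate numbers were shared between groups, but same-numbered libraries did not deviate together (r from -0.213 to 0.136). With the replicate block 0 of the 30 genes were called, Esrrg had an adjusted p of 0.116 against I/R and 0.118 against sham (edgeR), and calls over all genes numbered 1 in I/R + rapamycin against I/R, 7 in I/R + rapamycin against sham and 1 in I/R against sham, in place of 22, 27 and 10. At these depths the spread between libraries limited the precision.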

Other observations

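The libraries with high Crot, I/R + rapamycin 1 and 2 and I/R 3, also held the 3 highest levels of Acox2, a gene picked after its values were seen. Acox2, the peroxisomal oxidase of branched and bile acid side chains, was at 32.5, 34.0 and 14.7 CPM in I/R + rapamycin, 11.2, 27.4 and 45.7 CPM in I/R and 21.1, 12.7 and 19.1 CPM in sham libraries. Of 7 tubular injury markers listed 5 had a row in the FPKM table. Havcr1 and Sox9 had none, and that table holds only genes with 1 FPKM or more in at least 8 libraries. The summed level of the 5 was 386, 190.2 and 191 FPKM in I/R + rapamycin, 172, 188 and 475 FPKM in I/R and 129, 140.1 and 142 FPKM in sham libraries. Most of each sum was Spp1, the secreted protein osteopontin, at 311, 115 and 132 FPKM in I/R + rapamycin, 119, 119 and 397 FPKM in I/R and 73.8, 73.5 and 73.4 FPKM in sham libraries. Vcam1 and Krt18 were highest in sham 3, at 11.1 and 10.1 FPKM, Lcn2 in I/R + rapamycin 3, at 5.12 FPKM, and Krt8 in I/R + rapamycin 2, at 60.3 FPKM. The part of these markers in the Crot and Acox2 values was not tested.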
